A study of Mus musculus with 6 samples.

Results

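The epithelial sodium channel (ENaC) and its aldosterone response were followed through 8 genes of the kidney, chosen by name from the 24422 gene rows of the count tables. They were the 3 channel subunits Scnn1a, Scnn1b and Scnn1g, the kinase Sgk1, the mineralocorticoid receptor Nr3c2, the corticosteroid-inactivating enzyme Hsd11b2, the ubiquitin ligase Nedd4l and the channel-activating protease Prss8. All 8 were found and all 8 passed the filter on low counts, which kept 15145 genes. The rule is a list of names and sets no threshold on a value, but the list was drawn up with earlier results of these data known. RNA from whole kidneys was compared between 3 wild type C57BL/6 pups whose dams ate an iron-sufficient diet of 220 ppm (Control) and 3 wild type C57BL/6 pups whose dams ate an iron-deficient synthetic diet of 2 to 6 ppm (FeD). The dams were 8 weeks old when the diets began, in both groups. The diets ran from before mating through gestation and nursing, and the labels place all 6 kidneys at postnatal day 15. The number of litters was not given, so litter and diet cannot be told apart where a group came from 1 litter, and the p-values measure the spread between these kidneys. In whole kidneys, fewer cells of a type and less RNA per cell cannot be told apart.

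ENaC is the apical channel through which principal cells of the connecting tubule and collecting duct take up sodium from the urine, and each channel is built from an alpha, a beta and a gamma subunit. Aldosterone enters these cells, binds the mineralocorticoid receptor and raises transcription of Sgk1, whose kinase phosphorylates the ligase Nedd4-2 (Nedd4l) and so slows removal of ENaC from the membrane. The receptor also binds glucocorticoids, and Hsd11b2 inactivates these in principal cells, whereas prostasin (Prss8) takes part in the proteolytic activation of the channel.

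Of the 8 genes, 4 were higher and 2 were lower in FeD at an adjusted P under 0.05, and 2 did not pass the test. Among all tested genes 22.4% were higher and 23.3% lower by the same criterion, 45.7% in all, so a call was common in this comparison. Sgk1 and the gamma subunit Scnn1g had the largest changes of the 8, at 1.85-fold and 1.68-fold. No member reached a 2-fold difference, against 10% of all tested genes (4.34% higher and 5.69% lower), and the median log2 fold change of the 8 was 0.23 against -0.0018 over all tested genes. FeD and Control kidneys did not overlap in 7 of the 8 genes, 4 higher and 3 lower, which was true of 58.1% of tested genes (28.4% higher and 29.7% lower).

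The steroid response element was looked for near the start sites because receptors for aldosterone and glucocorticoid bind the same DNA letters, AGAACA and TGTTCT around 3 bases of any kind. RefSeq promoter windows on GRCm38.p6 ran from 250 bases before to 50 bases after a start site. They were examined for 4 of the 8 genes, with 6 windows for Sgk1 and 1 each for Scnn1b, Scnn1g and Nr3c2. Scnn1a, Hsd11b2 and Prss8 had no window under their symbols. Nedd4l was left out before the windows were counted, so the counts of member windows do not cover it. The whole element occurred in 3 of 32851 mouse windows (0.00913%), and 1 of these 3 was an Sgk1 window. The 250 bases before that start of Sgk1 and before the starts of Scnn1g and Scnn1b are given on the plus strand, 5′ to 3′, with each AGAACA or TGTTCT in capitals, since the Sgk1 stretch carries the element and the stretches of both subunits do not.
Sgk1, chr10:21993640-21993889: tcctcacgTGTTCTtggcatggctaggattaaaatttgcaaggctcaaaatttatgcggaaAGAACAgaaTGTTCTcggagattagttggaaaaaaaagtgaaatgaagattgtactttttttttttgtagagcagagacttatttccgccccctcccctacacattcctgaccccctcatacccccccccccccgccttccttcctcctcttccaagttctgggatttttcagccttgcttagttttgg
Scnn1g, chr7:121734229-121734478: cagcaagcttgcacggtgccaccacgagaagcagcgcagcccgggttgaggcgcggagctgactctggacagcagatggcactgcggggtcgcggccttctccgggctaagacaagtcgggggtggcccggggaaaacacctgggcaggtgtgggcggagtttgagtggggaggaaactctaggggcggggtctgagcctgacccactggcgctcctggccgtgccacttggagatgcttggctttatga
Scnn1b, chr7:121864788-121865037: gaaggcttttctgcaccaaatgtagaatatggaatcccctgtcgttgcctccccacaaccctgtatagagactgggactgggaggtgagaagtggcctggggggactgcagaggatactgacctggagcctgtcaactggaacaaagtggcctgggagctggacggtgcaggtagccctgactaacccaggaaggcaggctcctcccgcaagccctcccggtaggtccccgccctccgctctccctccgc
The Sgk1 element reads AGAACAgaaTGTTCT and lies 189 to 175 bases before the start. At least 1 AGAACA or TGTTCT occurred in 18.97% of all windows, and 2.54% held 2 or more. Among the 9 member windows examined, 3 held at least 1, all 3 of them Sgk1 windows. None of the windows of Scnn1b, Scnn1g or Nr3c2 did. The same 250 bases were found once each in the mm9 genome: the Sgk1 stretch fell inside the Sgk1 gene but outside its annotated exons, upstream of an internal start, and the stretches of Scnn1g and Scnn1b fell outside any annotated gene. The counts are per gene and do not tell which of the starts of Sgk1 was used, and a match of letters is not a measured binding site. The other genes whose windows held the whole element were Acnat2, an acyltransferase-family gene that was higher in FeD (log2 fold change 1.66 ± 0.13 SE, edgeR adjusted P = 7.45e-05), and Gm35041, which was not tested.

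The FeD kidney 2 stood apart in RNA of the adrenal cortex. The 7 adrenal cortex markers summed to 7.92 to 23.7 CPM (counts scaled to a common library size) in Control kidneys and to 13.3, 620 and 14.0 CPM in FeD kidneys 1, 2 and 3. Cyp11b1, which makes corticosterone in the adrenal, had 0, 4.43 and 0 normalized counts in Control kidneys and 0, 2375 and 5.18 in FeD kidneys. The marker Mc2r was also highest in FeD kidney 2, but it was higher in all 3 FeD kidneys than in any Control kidney. It had 7.67, 1.11 and 4.45 normalized counts in Control kidneys and 48.0, 252 and 36.3 in FeD kidneys. Its log2 fold change was 4.56 (edgeR adjusted P = 0.00528). Control kidney 1 also carried more Nr5a1 (123 normalized counts, against 1.11 and 1.78 in Control kidneys 2 and 3). Without FeD kidney 2, the same 4 members were higher, Prss8 was lower, and Hsd11b2 lost its call.

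Sgk1, the kinase that aldosterone induces, measured 4666, 4889 and 6523 normalized counts in Control kidneys and 8681, 9396 and 11731 in FeD kidneys. Every FeD kidney was above every Control kidney, and kidney 3 was the highest of its group in both. The difference was 0.89 ± 0.15 (SE) on the log2 scale, with a 95% interval of 0.54 to 1.25 and an adjusted P of 0.00231 by edgeR's quasi-likelihood test. A larger log2 fold change was found in 5.88% of tested genes. Leaving out single kidneys moved it between 0.77 and 1.05, and it was 0.95 (edgeR adjusted P = 0.00402) without FeD kidney 2.

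The channel subunits changed by unequal amounts. Scnn1g, the gamma subunit, measured 1443, 1509.7 and 1806 normalized counts in Control kidneys and 2792, 2857 and 2375 in FeD kidneys, and the groups did not overlap. It was higher in FeD by 0.75 ± 0.10 (SE; 95% interval 0.51 to 0.99, edgeR adjusted P = 0.0008) on the log2 scale, and 7.75% of tested genes had a larger log2 fold change. Leaving out single kidneys gave 0.69 to 0.85. Scnn1b, the beta subunit, measured 2433, 2542 and 2877 in Control kidneys and 3508, 3255 and 3052 in FeD kidneys. It was also higher, by 0.32 ± 0.08 (SE; 95% interval 0.13 to 0.51, edgeR adjusted P = 0.0138), a 1.25-fold difference. This call was lost without Control kidney 1 (edgeR adjusted P = 0.0643) or Control kidney 2 (0.0657). Scnn1a, the alpha subunit, measured 4719.7, 4855 and 5178 in Control kidneys and 5950.0, 5786 and 4514 in FeD kidneys. FeD kidneys 1 and 2 lay above all Control kidneys and FeD kidney 3 below them, so the groups overlapped. Its log2 difference of 0.14 ± 0.11 (SE; 95% interval -0.11 to 0.39) did not pass the test (edgeR adjusted P = 0.323), whereas without FeD kidney 3 it was 0.27 and did (0.0067). Scnn1g and Scnn1b are neighbours on mouse chromosome 7 (mm9, 128877993 to 128911989 and 129008591 to 129062029, both on the plus strand) with 96601 bases between them, and Scnn1a lies on chromosome 6 (125271358 to 125294958, plus strand).

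**Figure D1:**
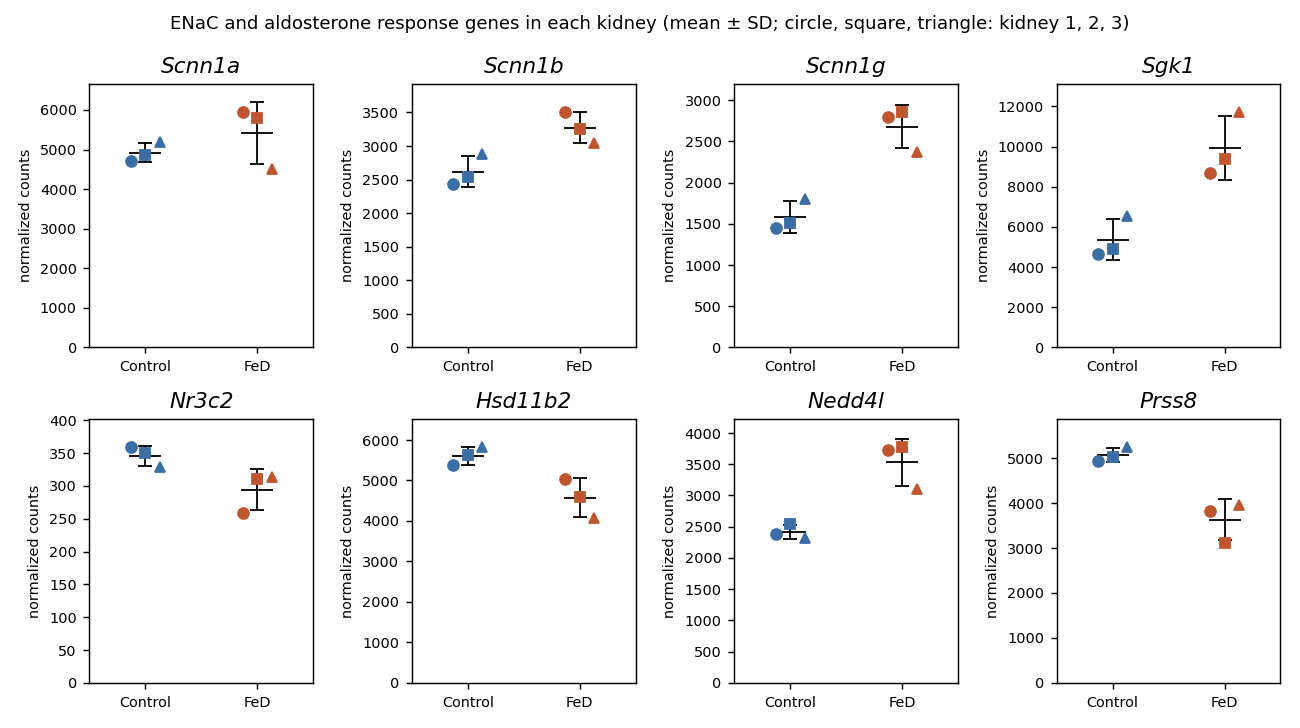
Normalized counts (y axis, from 0) of each of the 8 genes in the 3 Control kidneys (blue) and 3 FeD kidneys (orange). Circles, squares and triangles are kidneys 1, 2 and 3, and the bars are the mean and SD. The groups are separate in every panel but that of Scnn1a, in which FeD kidney 3 falls to 4514.

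**Figure D2:**
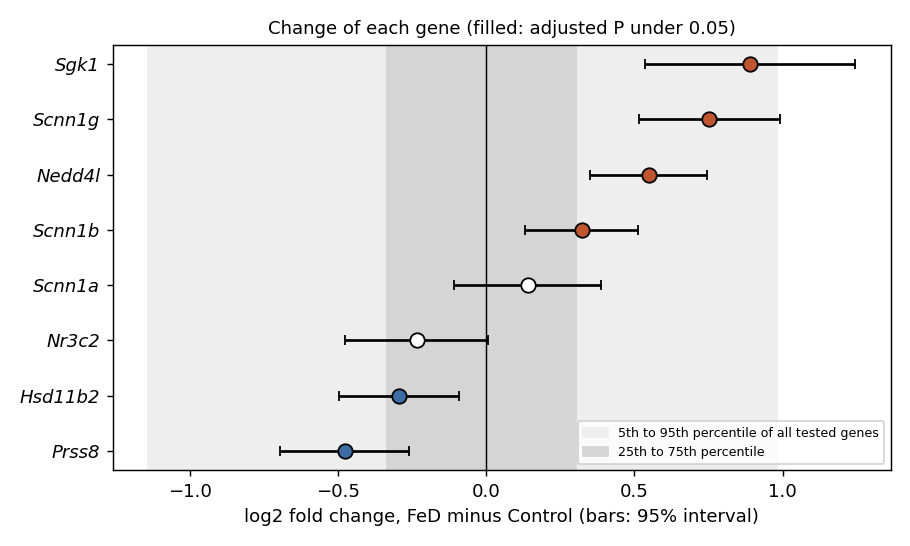
The log2 fold change, FeD minus Control, of each gene with its 95% interval, over bands that hold the middle of all 15145 tested genes. Orange is higher and blue lower at an adjusted P under 0.05, and open points did not pass. Sgk1, Scnn1g, Nedd4l and Scnn1b lie to the right, and Hsd11b2 and Prss8 to the left.

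Ratios within a kidney do not depend on library scaling. The ratio of gamma to alpha, as counts per kilobase of exon, was 0.357, 0.363 and 0.408 in Control kidneys and 0.548, 0.577 and 0.615 in FeD kidneys. This was 1.54-fold higher in FeD, with no overlap. The ratio of gamma to beta was 0.514, 0.515 and 0.544 in Control kidneys and 0.690, 0.760 and 0.674 in FeD kidneys, 1.35-fold higher. The ratio of beta to alpha was 0.695, 0.706 and 0.749 in Control kidneys and 0.795, 0.759 and 0.912 in FeD kidneys, 1.14-fold higher. Each of the 3 ratios gave p = 0.10 in a two-sided exact permutation test, the smallest value that 3 against 3 kidneys allow, and 0.10 after adjustment over the 3. Of the per-length transcript of the 3 subunits, alpha made up 47.8% ± 1.3 (SD, n = 3) in Control and 41.7% ± 1.8 (SD, n = 3) in FeD, and gamma 17.96% ± 0.82 and 24.1% ± 0.67. Beta held the same share to within its spread, at 34.2% ± 0.45 and 34.2% ± 1.8.

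Nedd4l encodes Nedd4-2, the ubiquitin ligase that marks ENaC for removal from the membrane. It measured 2381, 2540.2 and 2322 normalized counts in Control kidneys and 3722, 3771 and 3097 in FeD kidneys. All FeD kidneys were above all Control kidneys. The log2 difference was 0.55 ± 0.09 (SE; 95% interval 0.35 to 0.75, edgeR adjusted P = 0.00149), or 1.46-fold. Nedd4l, on mm9 chromosome 18 (65047410 to 65377480, plus strand), was thus higher in FeD, as was Sgk1, the kinase that acts on its product. Within each group the 2 genes did not run together, since kidney 3 had the highest Sgk1 and the lowest Nedd4l.

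Prss8, or prostasin, is a membrane-anchored serine protease of the renal epithelium. It measured 4935, 5017 and 5242 normalized counts in Control kidneys and 3814, 3119 and 3964 in FeD kidneys, with no overlap. It was lower in FeD by 0.48 ± 0.09 (SE; 95% interval of the log2 fold change -0.70 to -0.26, edgeR adjusted P = 0.00424), or 1.39-fold lower. FeD kidney 2 was the lowest, and without it the log2 fold change was -0.36 (edgeR adjusted P = 0.00511). Prss8 lies on mm9 chromosome 7 (135069239 to 135073627, minus strand), and 5.83% of its exon bases overlap Myst1 on the opposite strand.

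Hsd11b2, which converts active glucocorticoid to its inactive form, measured 5382, 5637 and 5819.7 normalized counts in Control kidneys and 5047, 4603 and 4076 in FeD kidneys. The groups did not overlap, and the log2 fold change was -0.30 ± 0.09 (SE; 95% interval -0.50 to -0.09, edgeR adjusted P = 0.0251). The call did not hold without Control kidney 2 (edgeR adjusted P = 0.0794), Control kidney 3 (0.0868) or FeD kidney 2 (0.0563), with the direction kept in each. Nr3c2, the mineralocorticoid receptor, was the least abundant member. It measured 359, 349.8 and 329 normalized counts in Control kidneys and 258, 310.5 and 314 in FeD kidneys. The groups did not overlap, but the log2 fold change of -0.23 ± 0.11 (SE; 95% interval -0.48 to 0.01) did not pass the test (edgeR adjusted P = 0.101). Hsd11b2 (108042646 to 108047884) and Nr3c2 (79423341 to 79768911) are both on the plus strand of mm9 chromosome 8, and 3.82% of the exon bases of Nr3c2 overlap the non-coding gene Gm10649 on the opposite strand.

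Levels were compared between genes as TMM-scaled CPM per kilobase of exon. In Control kidneys the order of mean levels was Hsd11b2 (170 ± 6.7 SD), Prss8 (153 ± 4.8), Scnn1a (78.7 ± 3.8), Sgk1 (61.2 ± 11.6), Scnn1b (56.5 ± 5.0), Scnn1g (29.7 ± 3.6), Nedd4l (14.7 ± 0.68) and Nr3c2 (2.99 ± 0.13), each with n = 3. Sgk1 and Scnn1b overlapped across Control kidneys, and every other pair of neighbours was separate. In FeD kidneys the level of Sgk1 was 113 ± 18.2, which put it second, between Hsd11b2 (139 ± 14.7) and Prss8 (109.8 ± 13.6). The neighbours from Hsd11b2 through Sgk1, Prss8 and Scnn1a (86.7 ± 12.6) to Scnn1b (70.7 ± 4.9) overlapped across FeD kidneys, and Scnn1g (50.05 ± 4.9), Nedd4l (21.4 ± 2.3) and Nr3c2 (2.54 ± 0.27) kept the last places. The place of Sgk1 depended on its length, since the gene has 13 annotated transcripts: with the longest transcript in place of all exons its level was 96.9 in Control and 180 in FeD, places 3 and 1 in the order.

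**Figure D3:**
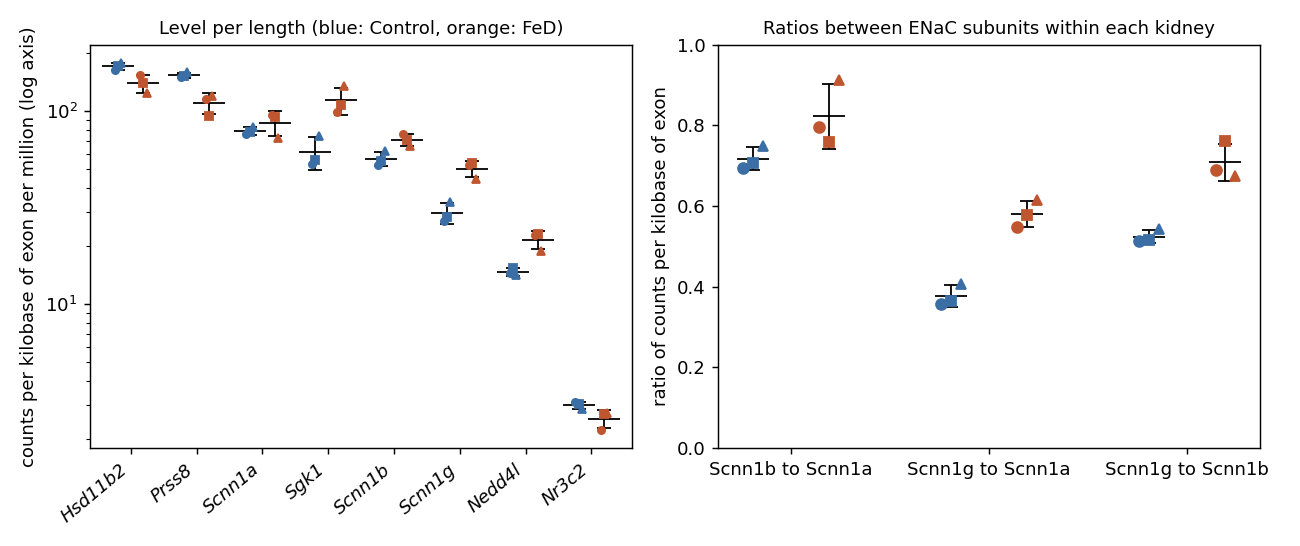
Left, the level of each gene in CPM per kilobase of exon on a log axis, in Control (blue) and FeD (orange) kidneys, with mean and SD; the steady order from Hsd11b2 to Nr3c2 in Control is broken in FeD by Sgk1 at 113. Right, the ratios between the ENaC subunits within each kidney, where gamma to alpha goes from 0.376 to 0.580 (geometric means).

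The members were set beside other transcripts of the principal cell, the collecting duct cell that holds ENaC. Of 7 principal cell markers, 4 were higher and 1 lower in FeD, where 22.4% of all tested genes were higher and 23.3% lower. Their summed level was 1783 to 2311 CPM in Control and 2507 to 4023 CPM in FeD. Without Aqp2, the leading gene on average, it was 1199 to 1384 CPM and 1516 to 2092 CPM. Much of that rest was Tfcp2l1, at 771 to 828 CPM in Control and 964 to 1115 CPM in FeD. The water channel genes Aqp2 and Aqp3 were higher (log2 fold change 1.13 and 1.10) together with the transcription factors Gata3 (0.48) and Tfcp2l1 (0.34), whereas the vasopressin receptor Avpr2 was lower (-0.67, a call lost without Control kidney 2, Control kidney 3 or FeD kidney 1). Tfcp2l1 lost its call without Control kidney 1 (edgeR adjusted P = 0.0574). Elf5 was at 0.22 and Aqp4 at 0.10, and neither passed. The mean log2 CPM of the 7 markers was 7.01 ± 0.14 (SD, n = 3) in Control and 7.35 ± 0.38 in FeD, with FeD kidney 3 the highest at 7.72 and FeD kidney 2 the lowest of its group at 6.96.

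Relative to this marker mean, Sgk1 was higher in all FeD kidneys than in any Control kidney (difference 0.55 on the log2 scale), and Prss8 (-0.83) and Hsd11b2 (-0.64) were lower without overlap. These 3 gave p = 0.10 in the two-sided exact permutation test, the smallest possible, and 0.267 after adjustment over the 8 members. Scnn1g differed by 0.41 from Control relative to the markers (exact permutation p = 0.4), Nedd4l by 0.20 (0.5), Scnn1b by -0.02 (1) and Scnn1a by -0.21 (0.8), all with overlap. Nr3c2 differed by -0.57 (exact permutation p = 0.2). The subunits and Nedd4l were highest relative to the markers in FeD kidney 2 and lowest in FeD kidney 3. The part of the principal cell markers in the changes of the members was not tested beyond these ratios.

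**Figure D4:**
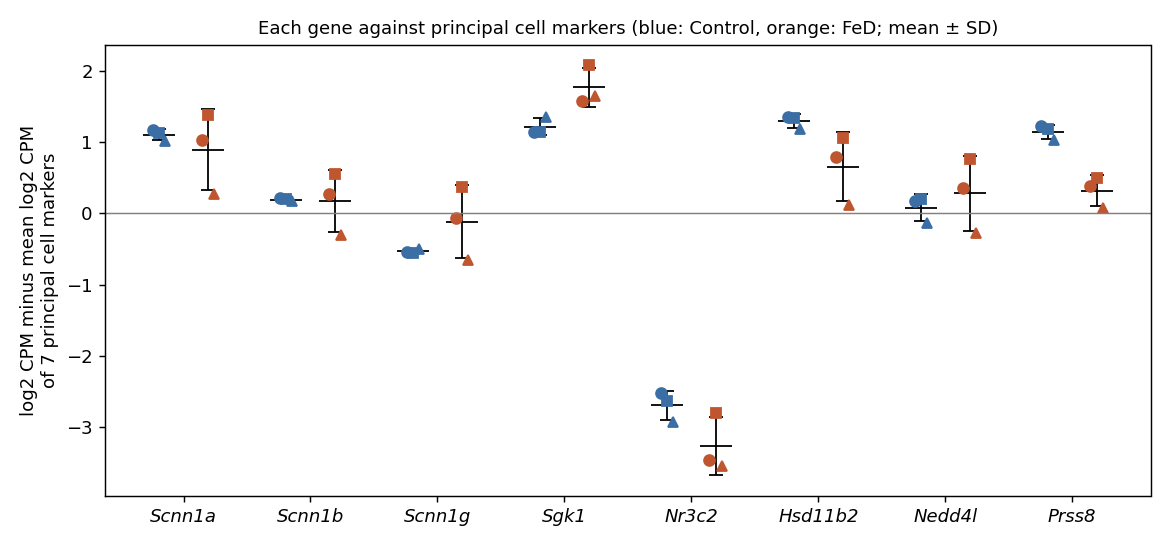
Log2 CPM of each gene minus the mean log2 CPM of 7 principal cell markers, by kidney (blue Control, orange FeD, bars mean and SD). The Control kidneys are close together and the FeD kidneys spread out, with Sgk1 above Control and Hsd11b2 and Prss8 below it in all 3 FeD kidneys.

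Markers of neighbouring cells were lower, mixed or mostly not called, where 22.4% of all tested genes were higher and 23.3% lower. Single genes made up much of some of the sums, which was examined after the values were seen. In the thick ascending limb none of 4 markers was higher and 1 was lower. The sums there overlapped, at 5785 to 6197 CPM in Control and 4407 to 7348 CPM in FeD. In the distal convoluted tubule Slc12a3 and Pvalb were lower and Trpm6 did not pass (edgeR adjusted P = 0.0665). Slc12a3 alone was 93.0% to 95.8% of that sum, so the sum (1219 to 1530.0 CPM in Control, 347 to 545 CPM in FeD) is in effect the level of Slc12a3, and the other 2 genes added up to 54.0 to 68.8 CPM in Control and 17.1 to 34.6 CPM in FeD. In the proximal tubule 5 of 6 markers were lower, with sums of 6496 to 7037 CPM and 2574 to 2929 CPM, or 2667 to 2947 CPM and 1820.3 to 2047 CPM without the leading gene Slc34a1. Of 5 connecting tubule markers 1 was higher and 3 were lower, and without the leading gene Klk1 the other 4 added up to 1361 to 1816 CPM in Control and 1219.9 to 1341 CPM in FeD. Of 7 intercalated cell markers 2 were higher and 4 lower. Their sum was 523 to 592 CPM in Control and 420.1 to 450.03 CPM in FeD. Without the leading gene Aqp6 it was 407 to 466 CPM in Control and 324 to 353 CPM in FeD, still lower. Slc26a4 and Slc4a1 had the lowest log2 fold changes of the 7 (-1.67 and -1.42). Without these 2 the sum was 325 to 356 CPM in Control and 350.02 to 359.8 CPM in FeD. They were picked for their low values, so no conclusion is drawn from that rest. The part of these cell types in the members' values was not tested.

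Transcripts known to respond to aldosterone or glucocorticoid rose nearly as a group. Of 14 such genes 13 were higher and none lower, against 22.4% of all tested genes higher, with 10 of them at least 2-fold higher (4.34% of all tested genes were), and the median log2 fold change was 1.43. Zbtb16, a zinc finger factor induced by glucocorticoid, went from 92.7 ± 16.5 (SD, n = 3) to 1751 ± 160 normalized counts, or by 4.24 ± 0.14 (SE, log2 scale, edgeR adjusted P = 3.83e-06). Lcn2, an iron-carrier-binding protein of the injured tubule, had a log2 fold change of 2.94 ± 0.30 (edgeR adjusted P = 0.000211). At the other end were Cnksr3, a scaffold that aldosterone induces in collecting duct cells (0.32 ± 0.07, edgeR adjusted P = 0.00762), and Ndrg2 (0.12 ± 0.07, edgeR adjusted P = 0.164), which passed the test only when FeD kidney 3 was left out. Named after their values were seen, Fkbp5 (2.42), Tsc22d3 (1.32) and Per1 (1.08), known targets of both receptors, were each higher in all 3 FeD kidneys. The rise of Edn1 and Lcn2 in these kidneys was known when the list was made, so the list is not independent evidence of its direction. Many of these genes respond to other stimuli as well, and the kidneys' values do not tell which receptor or stimulus acted.

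Of 13 receptor partners and enzymes of corticosteroid metabolism, 7 were higher, 4 lower and 2 not called, with a median log2 fold change of 0.23. That is 84.6% called, against 45.7% of all tested genes (22.4% higher and 23.3% lower). H6pd, which supplies the cofactor of the glucocorticoid-regenerating enzyme, and Hsd11b1, that enzyme itself, were both higher, by 0.81 ± 0.08 (SE, edgeR adjusted P = 0.000188) and 0.71 ± 0.12 (0.00202). Hsd11b1 measured 485, 458 and 404 normalized counts in Control kidneys and 623, 802 and 784 in FeD kidneys, the opposite direction to Hsd11b2. Fkbp4, a co-chaperone of steroid receptors, was lower by a log2 fold change of -0.88 ± 0.10 (edgeR adjusted P = 0.000297), and Cdk5, a kinase that phosphorylates the mineralocorticoid receptor, by -0.41 ± 0.09 (0.00615).

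Of 19 kinases and ubiquitin regulators 5 were higher, 4 lower and 10 not called, and their log2 fold changes had a median of -0.05. Of 11 proteases and inhibitors 3 were higher, 2 lower and 6 not called (median 0.01). The shares called, 47.4% and 45.5%, were close to the 45.7% of all tested genes. Rictor and Mapkap1 (Sin1), both subunits of the mTORC2 kinase complex that activates Sgk1, went in opposite directions (0.64 ± 0.07 SE and -0.46 ± 0.06, edgeR adjusted P = 0.000307 and 0.000778). The deubiquitinase Usp2, which acts against Nedd4-2 on ENaC, was higher (0.64 ± 0.10, edgeR adjusted P = 0.00145), and Wnk4, a kinase that regulates distal salt transport, was lower (-0.73 ± 0.13, edgeR adjusted P = 0.0028). The protease genes with the highest values were Tmprss2 (0.90 ± 0.09, edgeR adjusted P = 0.000176) and Plau (0.38 ± 0.09, 0.00819), the latter without a call when Control kidney 2 was left out (0.0528). Those with the lowest were Klk1, the tissue kallikrein of the connecting tubule (-1.43 ± 0.31, edgeR adjusted P = 0.00671), and Tmprss4 (-0.45 ± 0.40, 0.386), which did not pass.

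Of 12 transport partners of ENaC 11 were tested, Kcnmb4 being below the filter; none was higher, 3 were lower and 8 were not called, with a median log2 fold change of -0.03. The share called was 27.3%, below the 45.7% of all tested genes. The lower genes were Slc26a4 (pendrin, -1.67 ± 0.17 SE, edgeR adjusted P = 0.000183), Slc12a3 (the thiazide-sensitive cotransporter, -1.56 ± 0.17, 0.000263) and Fxyd2, the gamma subunit of the sodium pump (-0.82 ± 0.10, 0.000477), which was named after its values were seen. The potassium channel gene Kcnj16 was at 0.21 ± 0.11 (edgeR adjusted P = 0.146) and passed without FeD kidney 2 (0.35, 0.0102). Kcnma1, the pore of the large-conductance potassium channel, measured 111, 97.4 and 89.0 normalized counts in Control kidneys and 63.0, 235 and 50.1 in FeD kidneys. Its value of 0.19 turned to -0.79 (edgeR adjusted P = 0.0164) without FeD kidney 2, which also had the highest sum of adrenal cortex markers. A link between Kcnma1 and adrenal RNA was not tested. Slc12a3 and Slc26a4 here, and Klk1 among the proteases, are also counted in the marker sums, which are therefore not separate measurements from them.

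**Figure D5:**
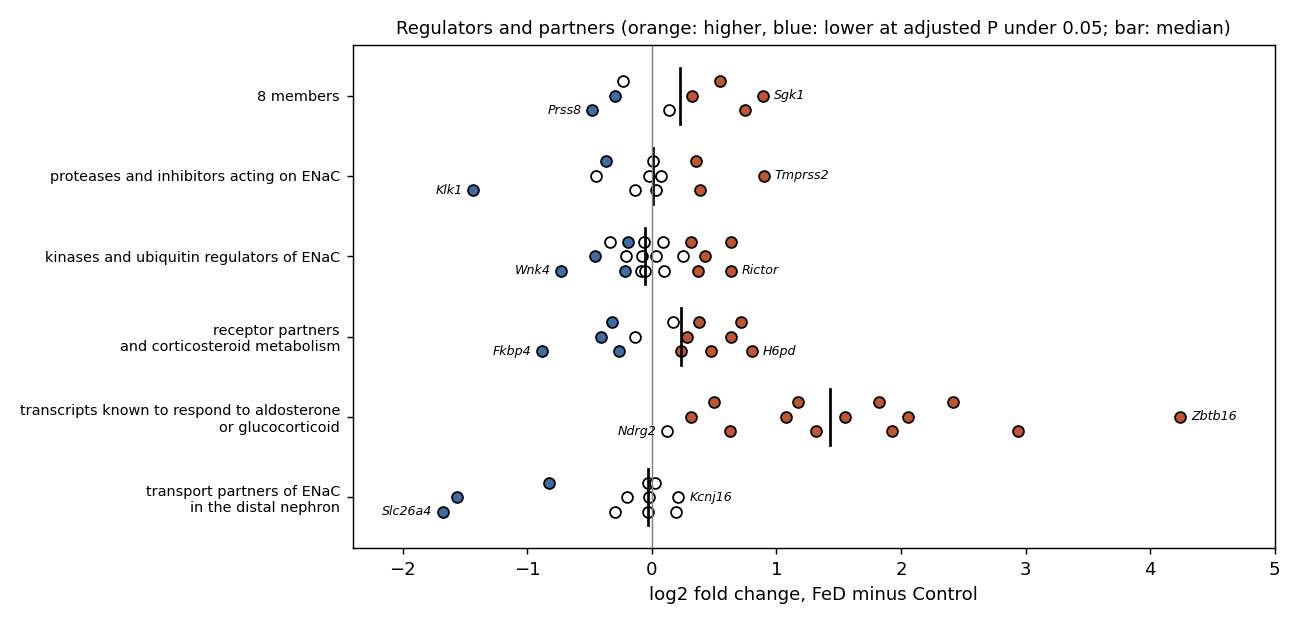
Log2 fold change, FeD minus Control, of each tested gene in the member set and the 5 lists of regulators and partners (orange higher, blue lower, open not called, bar median). The steroid-responsive list has its median at 1.43, and the other lists lie around 0 with genes on both sides.

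The genes whose profile over the 6 kidneys was most like that of each subunit were taken by the root mean square difference of centred log2 CPM, among the 12932 genes that averaged 50 or more normalized counts. For Scnn1g they were Adarb1 (0.059), Haus4 (0.069) and Thbs3 (0.070). For Scnn1b they were Snapc4 (0.020), Fam65a (0.022) and Lsm8 (0.027), and for Scnn1a Fdxacb1 (0.034), Pip5k1c (0.036) and 1600002H07Rik (0.038). No subunit was among the nearest genes of another, and 6 kidneys in 2 groups cannot show more than a like order of levels.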

How the data were processed

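RNA of 6 mouse kidneys (3 Control, 3 FeD) had been sequenced by the authors from polyadenylated TruSeq libraries as single-end reads. Per the labels and the submitters' processing notes, CASAVA 1.8.2, Trimmomatic, TopHat2 2.0.11 and HTSeq were used with mm9. The deposited values are raw counts of uniquely mapped reads per gene symbol, not normalized. The strand setting was not given in the sources used here, so reads of overlapping genes on opposite strands cannot be told apart. Totals were 16189041 to 20374327 in Control and 13732173 to 20853293 in FeD kidneys, and 3 counts correspond to 0.144 to 0.218 CPM. Without molecular identifiers, this limit covers counting error only.

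Counts were fitted in R 4.3.3 with edgeR 4.0.16 (filterByExpr, TMM, quasi-likelihood test) over all 15145 tested genes, and p-values were adjusted by Benjamini-Hochberg. Calls are at an adjusted P under 0.05. Normalized counts are counts scaled by TMM to the mean library size. The standard error is the log2 fold change divided by the square root of F. DESeq2 1.42.0, other scalings and filters, the replicate number as a block and each kidney left out were alternatives. In simulated counts with 200 changed genes, edgeR recovered 23 at a log2 fold change of 0.5, 183 at 1 and 196 at 2. False calls numbered 0, 16 and 16. Most differences of 0.5 were thus missed there. The simulation changed 200 genes, far fewer than were called in the data, and used a single dispersion for all genes. Its recovery shares therefore do not carry over to this comparison, in which smaller differences passed, such as Scnn1b at 0.32. A gene without a call may still differ.

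The members and lists were chosen with earlier results of these data known. Beside the 8 members, the 2 highest and 2 lowest tested genes of each list were named, with the markers and, for each subunit, the 3 genes most like it. A subunit was compared with genes of at least 50 normalized counts. Level per length used GENCODE exons on mm9. Marker ratios used log2(CPM + 0.5). Promoter windows came from RefSeq (GRCm38.p6). Positions on the 2 builds were not mixed. Proteins were not analysed here. The kidneys were not treated as pairs by replicate number. Kidneys of the same number did not deviate together, but 3 kidneys per group are too few to exclude a pairing.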

Additional observations from a re-analysis of the deposited data

How the results depend on the processing

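Other scalings were DESeq2's size factors, library size alone and the upper quartile. Other filters were none and at least 10 counts in every kidney. With each of these, with DESeq2 itself and with the replicate block, 4 members were called higher and 2 lower, as in the report. None of the 10 globin and mitochondrial rows had passed the filter, so leaving them out could not change a call. At a fold of at least 2, the members counted 0 higher and 0 lower, and all tested genes 657 and 862. With each kidney left out, the log2 fold change of Scnn1a ranged from 0.082 to 0.27, that of Scnn1b from 0.27 to 0.39 and that of Hsd11b2 from -0.36 to -0.21, with the lost or gained calls named in the report, and 3 to 5 members were called higher and 1 to 2 lower. Receptor partners then counted 4 to 7 higher and 2 to 5 lower, kinases and ubiquitin regulators 2 to 5 lower, and transport partners 0 to 1 higher. The cause was not tested.

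The replicate numbers shared by both groups were not taken as pairs. The deviations of kidneys with the same number correlated at -0.162, 9.57e-05 and -0.0348 over genes. Those of kidneys with different numbers correlated at -0.0924 to 0.168. Deviations from the means of 3 kidneys cannot exclude a pairing. With the replicate block the kinases and ubiquitin regulators counted 2 lower in place of 4, the log2 fold change of Kcnma1 turned to -0.094 and that of Aqp4 to -0.083, and no member changed its call. With single kidneys left out, Kcnma1 ranged from -0.79 (without FeD kidney 2) to 0.57 and Aqp4 from -0.52 (without FeD kidney 3, edgeR adjusted P = 0.0465) to 0.45.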
